A study of Mus musculus with 16 samples.

Results

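The 8 genes described here, Tbr1, Emx1, Fezf2, Neurod2, Neurod6, Bcl11b, Cux2 and Prdm8, encode transcriptional regulators of cortical projection neurons, and all 8 were found by Ensembl identifier among the 21804 genes of the table. They were followed by RNA-seq in the brains of 8 C57BL/6 mice at an age of 4 months. Cortex and thalamus of each mouse were sequenced as separate libraries, so 4 ret/wt and 4 ret/ret animals made 4 groups of 4 libraries, and the same replicate number within a genotype means the same mouse. The ret allele of Pdgfb lacks the retention motif of the growth factor PDGF-B, the controls (ret/wt) carried 1 such allele too, and the allele was present in every cell rather than in a chosen cell type. The ret/ret thalamus samples were calcified spots picked by their autofluorescence, the ret/wt thalamus samples were the corresponding places, and cortex had no calcification in either genotype, so in thalamus the genotype and the calcified tissue cannot be told apart.

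Excitatory neurons of the cerebral cortex arise in the pallium, where Emx1 and other homeobox genes mark the progenitors and their offspring. The basic helix-loop-helix factors Neurod2 and Neurod6 act in newly formed and mature pallial neurons, Tbr1, Fezf2 and Bcl11b direct the fates of deep-layer neurons, and Cux2 marks those of the upper layers. Excitatory relay neurons of the thalamus come from the diencephalon and use other regulators, such as Tcf7l2, Shox2 and Lef1.

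Library totals ran from 13415391 to 29135064 expected counts, so that the floor of 3 counts lay between 0.11 and 0.235 CPM (counts scaled to a common library total), and mitochondrial genes took 3.22% to 12.1%. Of the 8 cortex libraries, 4 held marker genes of other brain regions. The score of 10 cerebellar genes (mean log2 CPM) reached 6.23 for replicate 3 of ret/wt cortex and 7.58 for replicate 2 of ret/ret cortex, and all 10 genes peaked in the latter. The score of 8 hippocampal genes was 3.8 in ret/wt cortex replicate 4, where 6 of the 8 and 6 of 7 choroid plexus genes peaked, and 2.39 in ret/ret cortex replicate 1, where 2 of the 8 peaked. The latter also had the highest cortex score of the 10 striatal genes, 3.98, although 3 of them peaked there and 4 in ret/wt cortex replicate 4. Among thalamus libraries, ret/ret replicate 4 had the highest cerebellar score, 3.42, and ret/wt replicate 2 the highest hippocampal score, 2.57. Their part in the results below was not tested, and each result is given without those libraries where that changes its call.

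All 8 genes had lower mean levels in thalamus than in cortex in both genotypes, and 7 of the 8 passed the test in each. Tbr1 and Fezf2 showed the widest gaps in either genotype, Neurod2, Neurod6 and Emx1 followed, Prdm8 and Bcl11b had smaller ones, and Cux2 alone did not pass. In ret/wt, 7 of 8 were called lower against a background of 7.12% of 14442 genes, and in ret/ret 7 of 8 against 5.40% of 14715 (edgeR quasi-likelihood test, adjusted p under 0.05). Genes called in either direction made up 12.6% in ret/wt and 9.50% in ret/ret. The members' median log2 fold change was -4.55 in ret/wt and -3.53 in ret/ret, beside 0.03 and -0.02 over all genes tested. In these bulk samples, fewer cells of a type and less RNA per cell cannot be told apart. Values for single libraries are CPM after TMM scaling over all 16 libraries, and each fold change comes from a fit on the 8 libraries of its genotype, given as log2 with its standard error.

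**Figure D1:**
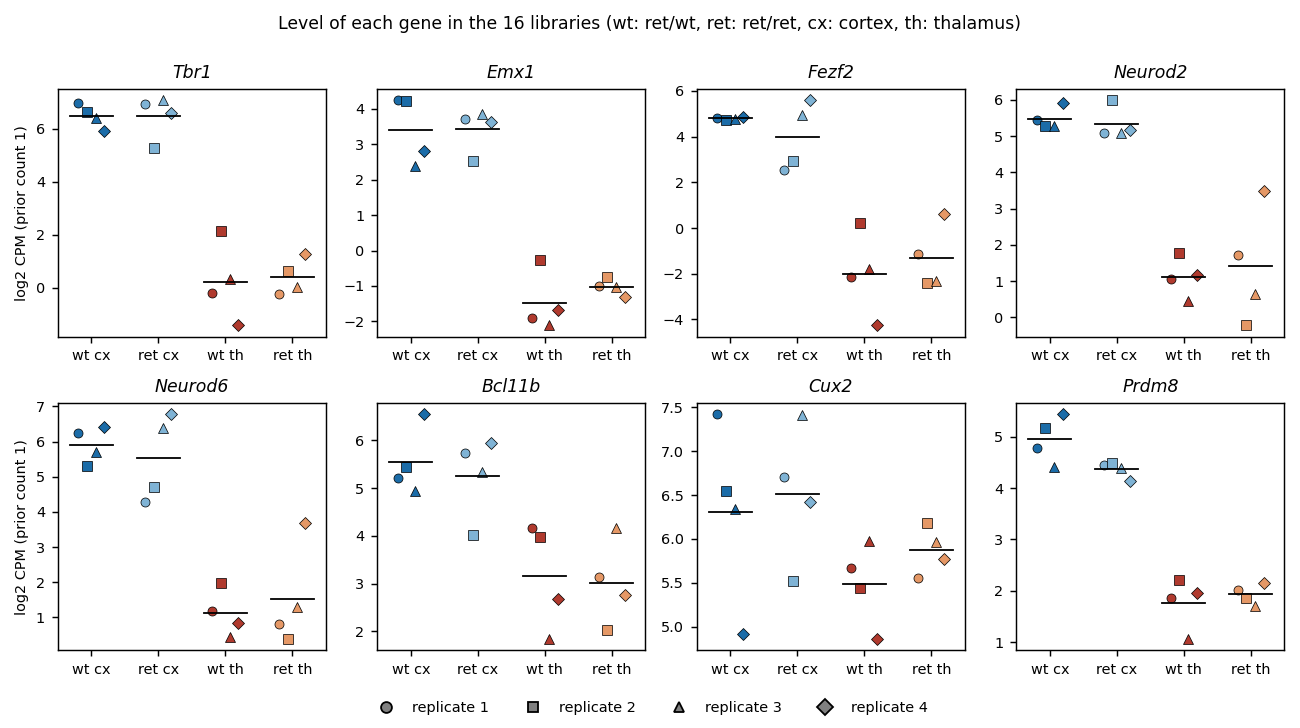
Level of each gene (log2 CPM) in the 16 libraries by group, with a symbol for each replicate number and a bar at the group mean. For 7 genes the cortex groups stand above the thalamus groups apart from an overlap of Bcl11b in ret/ret animals, whereas the Cux2 groups run into each other.

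Neurod2 and Neurod6 are close relatives that keep pallial excitatory neurons on their differentiation path. Their promoters are shown because both encode factors that bind E-boxes and both fell in thalamus, as most members did. The windows are the 200 bases from 250 to 51 before the start (RefSeq, GRCm38.p6, 5′ to 3′ on the gene's strand), for Neurod2 at chr11:98329696-98329895 on the minus strand and for Neurod6 at chr6:55681314-55681513 on the minus strand, with E-boxes (CANNTG, a palindrome and so the same on both strands) in capitals.
Neurod2: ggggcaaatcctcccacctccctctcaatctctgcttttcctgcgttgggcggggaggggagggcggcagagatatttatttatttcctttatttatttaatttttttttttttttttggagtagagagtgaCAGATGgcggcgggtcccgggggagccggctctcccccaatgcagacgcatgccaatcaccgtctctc
Neurod6: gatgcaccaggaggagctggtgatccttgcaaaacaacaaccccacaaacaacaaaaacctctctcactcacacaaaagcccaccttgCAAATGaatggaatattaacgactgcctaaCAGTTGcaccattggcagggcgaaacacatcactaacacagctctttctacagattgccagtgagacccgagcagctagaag
The Neurod2 window held 1 E-box, CAGATG, and the Neurod6 window 2. An E-box was present in 59.0% of all 32851 promoter windows of that length, and CAGATG, searched on both strands and itself an E-box, in 12%, so a match is a description of these letters and not a site. No E-box stood in the windows of Tbr1, Fezf2 or Bcl11b. No member window held the T-box element TCACACC (2.71% of all windows, both strands) or the homeodomain core TAATTA (4.19%).

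Neurod2 (chromosome 11, 98325415 to 98329648, minus strand, GENCODE M21 on GRCm38) measured 43.6, 38.9, 38.7 and 60.2 CPM in ret/wt cortex and 2.03, 3.38, 1.32 and 2.2 CPM in ret/wt thalamus. In ret/ret it measured 33.8, 63.5, 34.0 and 35.9 CPM in cortex and 3.24, 0.805, 1.5 and 11.1 CPM in thalamus. The regions did not overlap in either genotype, and ret/ret thalamus replicate 4 stood well above its group. The log2 fold change was -4.33 ± 0.32 in ret/wt (SE, edgeR adjusted p = 6.0e-05) and -3.33 ± 0.72 in ret/ret (edgeR adjusted p = 0.0226), and -4.49 in ret/ret without that library.

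Neurod6 (chromosome 6, 55677822 to 55681263, minus strand) measured 75.4, 39.5, 52.1 and 84.9 CPM in ret/wt cortex and 2.2, 3.88, 1.32 and 1.74 CPM in ret/wt thalamus. In ret/ret it measured 19.5, 26.4, 83.0 and 109.8 CPM in cortex and 1.68, 1.25, 2.38 and 12.7 CPM in thalamus. Cortex and thalamus values were separate in both genotypes, although the lowest ret/ret cortex library came near the highest ret/ret thalamus library. It had a log2 fold change of -4.77 ± 0.39 in ret/wt (SE, edgeR adjusted p = 1.1e-04) and of -3.73 ± 0.87 in ret/ret (edgeR adjusted p = 0.0296), or of -5.07 without ret/ret thalamus replicate 4. That library held the cerebellar granule cell gene Gabra6 at 2.97 CPM, where the other ret/ret thalamus libraries had at most 0.179. Its 10 cerebellar genes summed to 169 CPM, but those of ret/ret thalamus replicate 2 summed to 168 CPM. The latter had the lowest Neurod2 and Neurod6 of the group. Replicate 4 also had the highest Neurod2, Tbr1, Fezf2 and Prdm8 of its group, but not the highest Emx1, Bcl11b or Cux2. Whether cerebellar tissue had a part in these levels was not tested.

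Both calls of the pair in ret/ret were lost in several fits with 1 library left out. Neurod2 no longer passed when thalamus replicate 1 (edgeR adjusted p = 0.0709), thalamus replicate 3 (0.0624) or cortex replicate 3 (0.0513) was left out, and Neurod6 when thalamus replicate 1 (0.0829), thalamus replicate 3 (0.0874), cortex replicate 3 (0.0772) or cortex replicate 4 (0.0738) was left out. Their log2 fold changes stayed between -3.01 and -3.49 in those fits. Without the cortex libraries that held markers of other regions, Neurod2 had -3.04 and did not pass (edgeR adjusted p = 0.0623).

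Tbr1, a T-box factor of the early-born neurons of layer 6 and the subplate, lies on chromosome 2 from 61802930 to 61814114 on the plus strand. It measured 126, 99.7, 85.4 and 60.5 CPM in ret/wt cortex and 0.82, 4.38, 1.2 and 0.323 CPM in ret/wt thalamus. In ret/ret cortex it measured 124, 39.3, 135 and 96.2 CPM, and in ret/ret thalamus 0.798, 1.52, 0.97 and 2.36 CPM. The lowest cortex library was still far above the highest thalamus library. Tbr1 had log2 fold changes of -5.77 ± 0.66 in ret/wt (SE, edgeR adjusted p = 4.9e-04) and -6.12 ± 0.51 in ret/ret (edgeR adjusted p = 0.00112). Within single mice cortex exceeded thalamus by 22.7-fold to 187-fold.

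Fezf2, a zinc finger factor that directs subcerebral projection neurons of layer 5, lies on chromosome 14 from 12342094 to 12348189 on the minus strand. Its levels in ret/wt cortex were 28.3, 26.8, 27.1 and 29.4 CPM, and in ret/wt thalamus 0.173, 1.11, 0.239 and 0 CPM. In ret/ret cortex it measured 5.74, 7.55, 30.7 and 48.2 CPM, and in ret/ret thalamus 0.399, 0.134, 0.145 and 1.46 CPM. The ret/wt cortex libraries were nearly equal, the ret/ret cortex libraries fell into a low and a high pair, and most thalamus libraries were near the floor. Fezf2 fell by 6.16 ± 0.68 on the log2 scale in ret/wt thalamus (SE, edgeR adjusted p = 4.3e-04) and by 5.43 ± 0.97 in ret/ret thalamus (edgeR adjusted p = 0.0108). Without ret/ret thalamus replicate 4 the latter was -6.62, and without ret/ret cortex replicate 4 it was -4.78.

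Bcl11b, also called Ctip2, acts with Fezf2 in corticospinal neurons and is also made by striatal projection neurons and interneurons. It lies on chromosome 12 from 107910403 to 108003602 on the minus strand. Bcl11b measured 37.0, 43.6, 30.8 and 93.7 CPM in ret/wt cortex and 17.9, 15.7, 3.53 and 6.4 CPM in ret/wt thalamus. In ret/ret it measured 53.2, 16, 40.1 and 61.3 CPM in cortex and 8.73, 4.07, 17.8 and 6.74 CPM in thalamus. The ret/ret regions overlapped, because cortex replicate 2 lay below thalamus replicate 3, yet in each of the 8 mice thalamus was lower than cortex, by 2.07-fold to 14.7-fold. Its log2 fold change was -2.23 ± 0.52 in ret/wt (SE, edgeR adjusted p = 0.0191) and -2.19 ± 0.51 in ret/ret (edgeR adjusted p = 0.0297). Without ret/wt cortex replicate 4 the ret/wt value was -1.75 and did not pass (0.0501), and without all 4 cortex libraries that held markers of other regions it was -1.89 (0.0816). In ret/ret the call was lost without cortex replicate 1, 3 or 4 or thalamus replicate 1 or 4 (edgeR adjusted p from 0.0615 to 0.0866), with log2 fold changes of -1.96 to -2.19.

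Emx1, a homeobox gene of the dorsal pallium, lies on chromosome 6 from 85187438 to 85204462 on the plus strand. In cortex it measured 18.8, 18.6, 5.23 and 6.9 CPM in ret/wt and 13.1, 5.76, 14.3 and 12.3 CPM in ret/ret. In thalamus it measured 0.216, 0.776, 0.179 and 0.258 CPM in ret/wt and 0.443, 0.536, 0.436 and 0.352 CPM in ret/ret, which is 3 to 14 counts a library. Emx1 fell by 5.08 ± 0.64 on the log2 scale in ret/wt thalamus (SE, edgeR adjusted p = 8.6e-04) and by 4.66 ± 0.38 in ret/ret thalamus (edgeR adjusted p = 0.00112). In ret/wt, thalamus replicate 2 held the highest values of Emx1, Fezf2 and Tbr1, and without it their log2 fold changes were -5.77, -7.52 and -6.85. It also had the highest Neurod2, Neurod6 and Prdm8 of its group, but not the highest Bcl11b or Cux2. That library had the highest hippocampal score of the thalamus libraries, 2.57 (mean log2 CPM). Whether hippocampal tissue had a part in these levels was not tested.

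Prdm8, a PR-domain protein that acts as a repressor in cortical circuit assembly, lies on chromosome 5 from 98167198 to 98188991 on the plus strand, where the annotation also has the antisense gene A730035I17Rik. Whether the counting used strand is not given in the sources used here, so reads of the pair may be mixed. Its promoter window, chr5:98180619-98180818 on the plus strand (GRCm38.p6), lies before the start that RefSeq gives, which is inside the longer GENCODE span. It is shown for comparison with the windows of Neurod2 and Neurod6, with its 2 E-boxes in capitals.
Prdm8: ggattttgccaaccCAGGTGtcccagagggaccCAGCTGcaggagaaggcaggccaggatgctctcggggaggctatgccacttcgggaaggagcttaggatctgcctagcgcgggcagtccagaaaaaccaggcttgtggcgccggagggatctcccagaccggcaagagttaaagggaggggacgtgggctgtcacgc
Prdm8 measured 27.4, 35.9, 21.4 and 43.3 CPM in ret/wt cortex and 3.58, 4.6, 2.03 and 3.81 CPM in ret/wt thalamus. In ret/ret it measured 21.8, 22.3, 21.0 and 17.5 CPM in cortex and 3.99, 3.58, 3.2 and 4.38 CPM in thalamus. Both regions were tight in ret/ret and clearly apart. The log2 fold change was -3.17 ± 0.32 in ret/wt (SE, edgeR adjusted p = 2.9e-04) and -2.44 ± 0.20 in ret/ret (edgeR adjusted p = 0.00112).

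Cux2, a cut-homeobox factor of upper-layer neurons, lies on chromosome 5 from 121856366 to 122050102 on the minus strand and overlaps the antisense genes Gm3970 and Gm15637. It measured 172, 93.1, 81.2 and 30.2 CPM in ret/wt cortex and 50.9, 43.4, 63.1 and 29.1 CPM in ret/wt thalamus. In ret/ret it measured 104, 45.9, 169.8 and 85.4 CPM in cortex and 47.3, 72.5, 62.5 and 54.7 CPM in thalamus. Cux2 was far above the floor in every thalamus library, and the regions overlapped in both genotypes. The log2 fold change of -1.0 ± 0.44 in ret/wt (SE, edgeR adjusted p = 0.169) and of -0.77 ± 0.34 in ret/ret (edgeR adjusted p = 0.185) did not pass. Thalamus was lower in 7 of 8 mice, the exception being ret/ret animal 2. In ret/wt, Cux2 passed without cortex replicate 4 (log2 fold change -1.29, edgeR adjusted p = 0.0354) and without all libraries with other markers (-1.5, 0.0346). In ret/ret it passed without cortex replicate 2 (-1.0, 0.0346) and without both libraries of that animal (-1.11, 0.0265).

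The 2 regions did not overlap for 7 members in ret/wt, beside 19.9% of all genes tested whose regions did not overlap in either direction, and for 6 members in ret/ret, beside 17.5%. Set on a scale per length (CPM per kilobase of exon), mean levels in ret/wt cortex ran from 29.3 for Neurod6, over 16.9 for Tbr1, 14.4 for Neurod2, 9.33 for Cux2, 9.16 for Fezf2, 6.59 for Prdm8 and 6.32 for Bcl11b, to 5.68 for Emx1. In ret/wt thalamus on that scale Cux2 came first with 4.62, Bcl11b followed with 1.34 and Neurod6 with 1.06, and the others lay between 0.125 and 0.723.

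**Figure D2:**
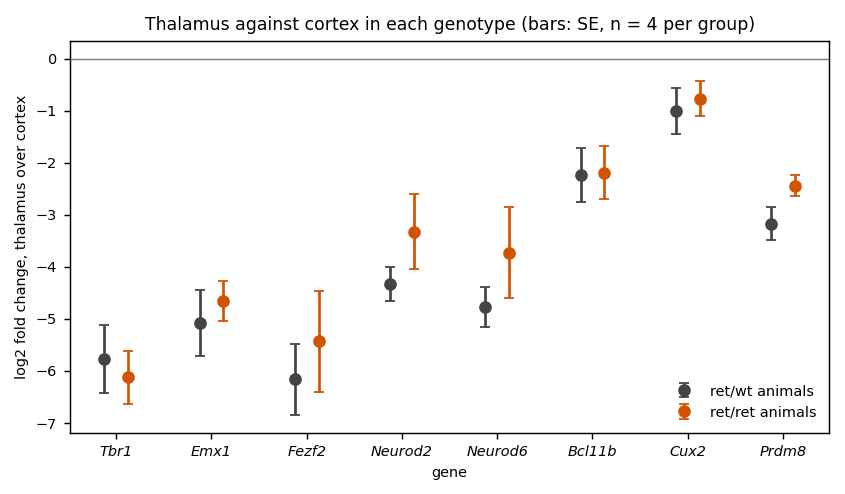
Log2 fold change of thalamus over cortex for each gene, fitted separately in ret/wt and ret/ret animals, with bars of 1 standard error. All values lie below 0, from -0.77 for Cux2 in ret/ret to -6.16 for Fezf2 in ret/wt, and the genotypes' bars mostly meet.

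Other regulators of the same neurons moved the same way in part. Of 10 further upper-layer regulators, 5 fell in ret/wt thalamus and 4 in ret/ret (medians -1.58 and -1.23). Mef2c had log2 fold changes of -3.90 ± 0.58 and -3.67 ± 0.62, Bhlhe22 -3.07 ± 0.39 and -2.95 ± 0.29, and Lmo4 -2.20 ± 0.24 and -1.76 ± 0.28, in ret/wt and ret/ret in that order. Cux1, the relative of Cux2, had 0.07 ± 0.27 and 0.01 ± 0.17, and is named here after its values were seen. Of 9 deep-layer regulators, 3 fell in ret/wt and 4 in ret/ret, among them Bcl11a (-2.12 ± 0.28 and -2.03 ± 0.32), Nr4a2 (-3.57 ± 0.54 and -2.62 ± 0.64) and Nfib (-1.26 ± 0.36 and -1.07 ± 0.24), while Ldb2 (-1.04 ± 0.31 and -1.0 ± 0.52) passed in neither, though it did in ret/wt without thalamus replicate 1 (-1.34, edgeR adjusted p = 0.0207). Of 7 early pallial regulators tested, 4 fell in ret/wt and 3 in ret/ret. Zbtb18 fell by 2.55 ± 0.29 and 1.83 ± 0.26. Neurod1 fell by 3.76 ± 0.76 and 4.41 ± 1.18, with its highest cortex levels, 58.1 and 158 CPM, in the libraries with cerebellar genes against 5.34 to 14.9 in the others. Without those it fell by 2.52 in ret/wt and by 1.78 in ret/ret. Nfix had -1.89 ± 0.42 and -1.14 ± 0.39 and passed in ret/wt, and in ret/ret it passed only when cortex replicate 1 was left out (-1.37, edgeR adjusted p = 0.0391).

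Of 16 layer effector genes, 8 fell and 2 rose in ret/wt thalamus and 6 fell in ret/ret, with Crym at -5.64 ± 0.82 and -4.30 ± 0.60, Lamp5 at -3.46 ± 0.50 and -2.69 ± 0.71, Satb1 at -2.47 ± 0.41 and -1.93 ± 0.35 and Rprm at -2.13 ± 0.39 and -2.5 ± 0.53. With single libraries left out, the calls of Nfib in both genotypes and of Nr4a2, Neurod1 and Lamp5 in ret/ret were lost in most fits. That of Rprm in ret/ret was lost in some fits, and all these genes kept their direction. Besides Neurod1, Irx1 and Lef1, values that moved by over 1.5-fold with 1 library left out were those of Crym in ret/wt (-4.58 without cortex replicate 4), of Mef2c (-4.55 without ret/wt thalamus replicate 3, -4.46 without ret/ret thalamus replicate 2), and, in ret/ret, of Rprm (-1.72 without cortex replicate 1), Lamp5 (-1.93 without cortex replicate 3, -3.31 without thalamus replicate 4) and Tcf7l2 (3.73 without thalamus replicate 2). Thalamic regulators went the other way, with 5 of 9 higher in ret/wt thalamus (5.44% of all genes tested) and 4 of 10 in ret/ret (4.10%). Shox2 stood at 9.39 ± 0.50 and 8.26 ± 0.91 and Tcf7l2 at 5.16 ± 0.34 and 4.34 ± 0.67, whereas Lef1 (3.34 ± 0.39 and 2.40 ± 0.70) and Irx1 (4.54 ± 0.45 and 2.33 ± 1.02) passed in ret/wt and not in ret/ret. Among ret/ret cortex libraries Irx1 read 6.76 CPM for replicate 2 and at most 0.912 elsewhere, and without that library it was 4.62 and passed (edgeR adjusted p = 0.00597), while Lef1 was 1.33 without ret/ret thalamus replicate 2. The genotype by region interaction called none of these genes. Of 8 pan-neuronal genes, 2 fell and 1 rose in ret/wt and 1 fell and 1 rose in ret/ret, and all 8 oligodendrocyte genes rose in both genotypes. Interneuron genes fell in 6 of 11 cases, with 1 rising, in ret/wt and in 7 of 11 in ret/ret. Of the striatal genes, 3 rose and 2 fell of 10 in ret/wt and 1 rose and 1 fell in ret/ret. The hippocampal, microglia, endothelial and mural, and choroid plexus lists had 0 calls in both, cerebellar genes 1 rise in ret/wt, and astrocyte genes 1 fall in ret/wt and 2 in ret/ret.

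Between the 8 cortex libraries, most members varied more than a typical gene. The coefficient of variation (CV, the SD as a percentage of the mean) was 53.1% for Fezf2, 52.5% for Cux2, 51.9% for Neurod6, 49.7% for Bcl11b, 45.9% for Emx1, 34.8% for Tbr1, 33.6% for Prdm8 and 27.0% for Neurod2. Over 13798 genes with a mean of at least 1 CPM in cortex, the median CV was 24.5% and the 90th percentile 57.6%, so all 8 members lay between those marks. The highest cortex library exceeded the lowest by 8.4-fold for Fezf2, 5.85-fold for Bcl11b, 5.69-fold for Cux2, 5.62-fold for Neurod6, 3.6-fold for Emx1, 3.43-fold for Tbr1, 2.48-fold for Prdm8 and 1.88-fold for Neurod2. Without ret/wt replicate 3 and ret/ret replicate 2, the CVs were 48.0% for Fezf2, 49.7% for Cux2, 48.1% for Neurod6, 38.4% for Bcl11b, 31.7% for Emx1, 25.6% for Tbr1, 35.8% for Prdm8 and 24.5% for Neurod2. No background over all genes was computed without those libraries, so these CVs cannot be set against the marks above.

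Every departure of more than 1 (log2) from a gene's cortex median came from the 4 libraries with markers of other regions. That set was chosen after seeing the data. Cux2 came close to the mark outside it, at 0.94 for ret/wt replicate 1 and 0.93 for ret/ret replicate 3. The largest departure, Fezf2 at -2.26, was in ret/ret replicate 1. That library had the highest striatal score, 3.98, but its hippocampal genes summed to 102 CPM, below the 121 CPM of ret/wt replicate 1. Whether tissue of other regions caused the departures was not tested. In ret/ret cortex replicate 2, which had the highest cerebellar score, 6 of 8 members were low against the median of the 8 cortex libraries: Fezf2 by -1.87 (log2), Bcl11b by -1.38, Tbr1 by -1.31, Neurod6 by -1.25, Emx1 by -1.14 and Cux2 by -0.96. Neurod2, at 0.71, was highest there, and its level of 63.5 CPM was the maximum of all cortex libraries. In ret/wt cortex replicate 3, where the cerebellar gene Cbln3 reached 416 CPM against 1047 in the former library and at most 2.41 in the other cortex libraries, Emx1 stood at -1.27 and the other 7 between -0.44 and 0. The granule cell gene Gabra6 read 182 and 397 CPM in these libraries and at most 0.391 in the others.

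ret/wt cortex replicate 4, with Fibcd1 at 138 CPM and the choroid plexus gene Ttr at 1038 CPM, had Cux2 at -1.56, Emx1 at -0.88 and Tbr1 at -0.69, but Bcl11b at 1.16, Prdm8 at 0.97 and Neurod2 at 0.63. ret/ret cortex replicate 1, where 3 of 10 striatal genes (Penk among them, at 212 CPM) and 2 of 8 hippocampal genes had their cortex maximum, had Fezf2 at -2.26 and Neurod6 at -1.68 and the other 6 between -0.20 and 0.35. The mean over the 8 members was -0.90 in ret/ret replicate 2, -0.40 in ret/ret replicate 1 and -0.30 in ret/wt replicate 3, and between 0.02 and 0.31 in the other cortex libraries.

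**Figure D3:**
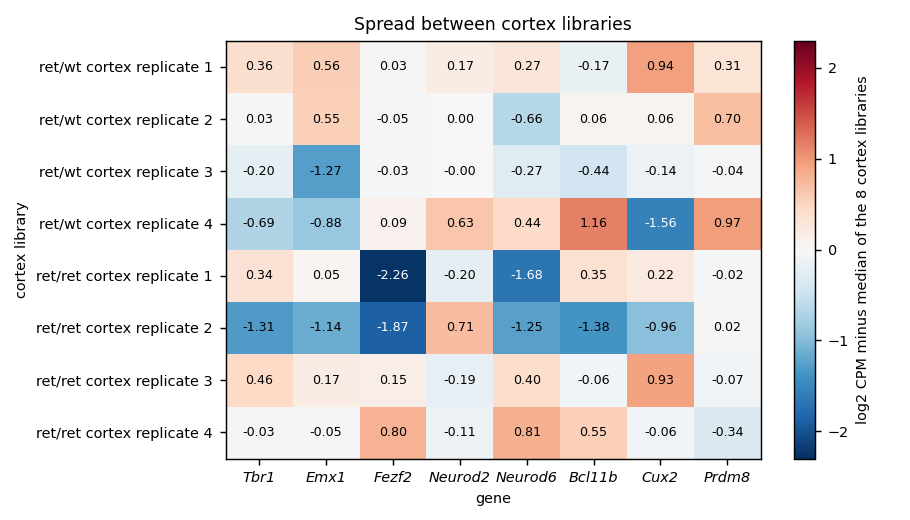
Log2 CPM of each gene minus its median over the 8 cortex libraries, with a library in each line and a gene in each column (red above, blue below the median). ret/ret replicate 2 is low for 6 genes and high for Neurod2, and ret/ret replicate 1 is low for Fezf2 and Neurod6.

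**Figure D4:**
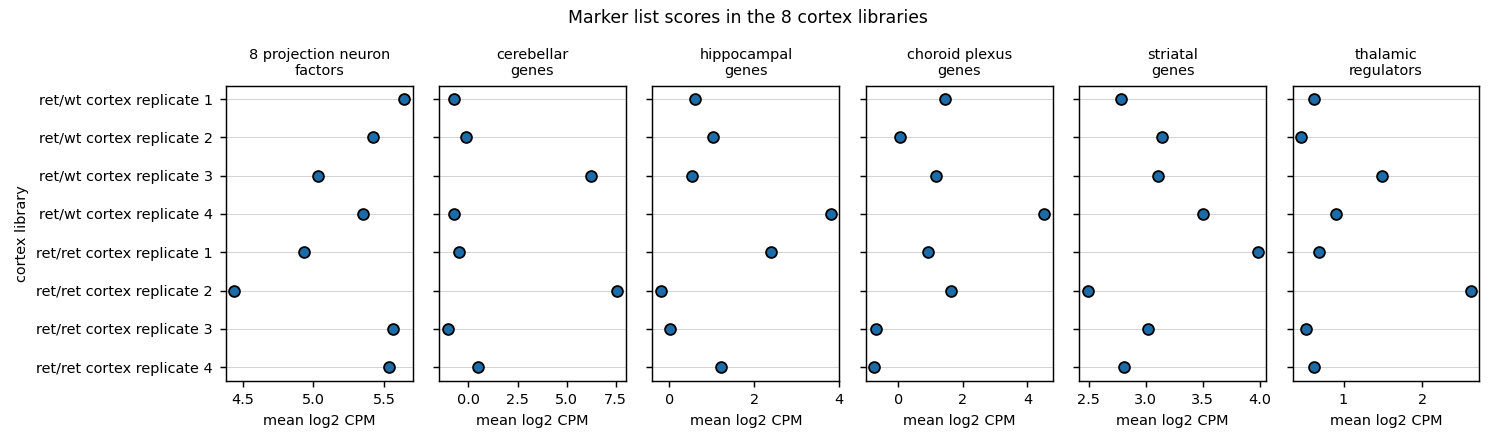
Mean log2 CPM of the 8 genes and of 5 marker lists in each cortex library, each panel with its own axis. The cerebellar lists reach 6.23 and 7.58 in ret/wt replicate 3 and ret/ret replicate 2, and the hippocampal and choroid plexus genes are highest in ret/wt replicate 4.

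Among themselves, the members did not form a single group in cortex. After centring within genotype, the correlation of each member with the mean of the others over the 8 cortex libraries was 0.61 for Tbr1, 0.60 for Fezf2, 0.60 for Neurod6, 0.56 for Emx1, 0.40 for Bcl11b, 0.34 for Cux2, -0.15 for Prdm8 and -0.63 for Neurod2, a description over libraries that also share the marker genes of other regions given above. Over all 16 libraries, where the gap between regions dominates, these values were 0.84 to 0.98, and 0.51 for Cux2. Among the 5 other genes most like the members' mean over the 16 libraries were Ankrd33b (Pearson r 0.989), Itpka (0.987), Kcnv1 (0.986) and Inka2 (0.984), of 12661 genes ranked. Over the 8 cortex libraries centred within genotype they were Npas2 (0.976), Kcnc2 (0.976), Mfsd6 (0.972), Lzts3 (0.969) and Thrb (0.968).

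The regional gap itself was not shown to differ between genotypes for any member. The genotype by region interaction (ret/ret minus ret/wt log2 fold change) was fitted on all 16 libraries without a term for the mouse. It called 0 of 15286 genes (0.00%) in edgeR, with 245 genes (1.60%) at an unadjusted p under 0.05 and 4 genes by DESeq2. No member was called by either or reached that unadjusted p in edgeR. Prdm8 came nearest, at 0.74 ± 0.36 (SE), a smaller gap in ret/ret (edgeR adjusted p = 1). Its within-mouse difference was -3.18 ± 0.29 in ret/wt and -2.43 ± 0.32 in ret/ret (SD, n = 4 each), and the 2-sided exact permutation p of 0.0286 is the smallest that 70 regroupings can give, before any adjustment for the 8 members tested. The interval of ±2 SE for Prdm8 ran from 0.03 to 1.45, with an unadjusted edgeR p of 0.0534. Over the alternatives run, its estimate stayed between 0.55 and 0.91. For the others the interval of ±2 SE ran from -0.56 to 2.58 for Neurod2, -0.85 to 2.94 for Neurod6, -1.92 to 1.23 for Tbr1, -1.66 to 3.12 for Fezf2, -1.51 to 1.59 for Bcl11b, -1.0 to 1.85 for Emx1 and -0.97 to 1.44 for Cux2. Without ret/ret thalamus replicate 4 the estimate for Neurod2 was -0.15 and for Neurod6 -0.30. The median estimate of the 8 members was 0.58, and 0.01 without that library.

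In cortex, the genotypes differed at 3 of 14288 genes (0.0210%) and at 0 of 8 members in edgeR, with 538 genes (3.77%) and 1 member at an unadjusted p under 0.05 and 38 genes called by DESeq2. That member was Prdm8, at 20.6 ± 2.19 CPM in ret/ret against 32 ± 9.58 in ret/wt (SD, n = 4 each). The log2 fold change was -0.62 ± 0.23 (SE) (edgeR adjusted p = 0.999). Its groups overlapped, since ret/wt replicate 3 lay within the ret/ret range, and the value was -0.81 without ret/wt animal 3 and ret/ret animal 2. The other 7 members lay between -0.26 and 0.12. Fezf2 had a CV of 4.26% within ret/wt cortex and 87.9% within ret/ret cortex, a description over 4 libraries each.

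In thalamus, 0 of 14767 genes (0.00%) differed between calcified ret/ret tissue and ret/wt tissue in edgeR, with 581 genes (3.93%) at an unadjusted p under 0.05 and 37 called by DESeq2. Of the members, 6 passed the filter on low counts and none of them was called, while Emx1 and Fezf2 were not tested. The log2 fold change of Neurod2 was 0.93 with a standard error of 0.73 and that of Neurod6 1.01 with the same error, and without ret/ret replicate 4 these were -0.23 and -0.33. Cux2 had 0.38 ± 0.24, Prdm8 0.14 ± 0.33, Bcl11b -0.18 ± 0.55 and Tbr1 -0.21 ± 0.72.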

How the data were processed

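PolyA-selected RNA from 16 pieces of mouse brain was sequenced from stranded libraries, per the labels' protocols. The deposited table holds expected counts per Ensembl gene (100.0% of nonzero values are not whole). The submitters' processing notes name kallisto 0.44.0 and GRCm38.p6, and how transcripts were summed to genes is not given in the sources used here. Counts were rounded, filtered (filterByExpr, minimum count 10, minimum total 15), scaled by TMM and fitted with edgeR 4.0.16 in R 4.3.3, with p-values adjusted by Benjamini-Hochberg over all genes tested. The main region and interaction fits had no term for the animal, so libraries of the same mouse were treated as independent there. A fit with the animal as block was run as an alternative. DESeq2 1.42.0 and limma 3.58.1 (voom) served as further alternatives. Log2 CPM for single libraries used a prior count of 1. Replicates are separate mice, per the labels.

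The members, the 15 other lists and the naming rule were chosen with earlier results of these data known. The rule names every member, up to 4 genes of each other list with the smallest p in ret/wt (values are printed for the regulator and layer lists), and the 5 genes most like the members' mean. Of 145 list genes, 4 were not analysed here, and values of some genes the rule names are not reported here. Cortex and thalamus with the same number came from 1 mouse per the labels' animal letters, and their residuals correlated at -0.0171 to 0.239 over 15286 genes. In a test on simulated data with a log2 change of 2 in 200 genes, 82% were recovered in the ret/wt region comparison (14289 genes) and 78.5% in ret/ret (14535). For the interaction 58% were recovered (15114), for genotype in cortex 77% (14133) and for genotype in thalamus 78.5% (14569). False calls made up 5.75%, 5.42%, 7.2%, 4.94% and 4.27% of the calls, in that order. Floors cover counting error only. Symbols and coordinates came from GENCODE M21, matched for 99.0% of genes.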

Additional observations from a re-analysis of the deposited data

Results flagged for a closer look

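A library was listed here when, in a group of 4, its gap to the nearest other library was above Dixon's 95% critical share of the group's range, which chance gives in about 1 of 20 groups. Of 52 groups tested, 7 met this. For the members they were Emx1 in ret/wt thalamus replicate 2, at 0.776 CPM where the other 3 had at most 0.258, Neurod2 in ret/ret cortex replicate 2, at 63.5 CPM where the others had at most 35.9, and Neurod6 in ret/ret thalamus replicate 4, at 12.7 CPM where the others had at most 2.38. For the marker lists they were the cerebellar score of ret/wt cortex replicate 3 (6.23, mean log2 CPM) and of ret/ret thalamus replicate 4 (3.42), the hippocampal score of ret/wt cortex replicate 4 (3.8) and the thalamic regulator score of ret/ret cortex replicate 2 (2.62).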

How the results depend on the processing

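The region comparisons kept every member's direction under all alternatives run, with 7 of 8 members called in each genotype in the fits with the replicate block (the animal as pair) as without it. Leaving out 1 library at a time gave 4 to 8 members called in ret/ret, with 4 without cortex replicate 3 and 4 without thalamus replicate 1. Genes called in ret/wt numbered 1813, 1178 to 1797 with 1 library left out and 1182 without the 4 cortex libraries holding markers of other regions, an alternative chosen after seeing the data. In ret/ret they numbered 1398, 627 to 2007 with 1 left out, 2591 by DESeq2 and 2564 without ret/wt animal 3 and ret/ret animal 2. The interaction gave 0 genes, and 4 by DESeq2. In the genotype comparisons the replicate block joined ret/wt and ret/ret mice by replicate number alone. These are different mice, so there the block is not a pairing by animal. Genotype in cortex gave 3 genes, 0 to 2 with 1 left out, 38 by DESeq2, 0 with the replicate block, 7 in a fit of all 16 libraries, 1 without the 2 animals and 0 without the 4 libraries. Genotype in thalamus gave 0 genes, 37 by DESeq2 and 3 in a fit of all 16.

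Estimates of the interaction and of genotype, none of them called, changed sign in some fits, and the cause was not tested. For the interaction these were Bcl11b (-0.0047 with library size alone, -0.08 without the 2 animals, -0.53 without the 4 libraries), Tbr1 (0.20 with voom, 0.13 with the replicate block, 0.23 in the permutation) and Fezf2 (-0.04 without the 4 libraries). In cortex they were Emx1 (0.13 with voom, 0.05 with the replicate block), Fezf2 (0.02 without the 2 animals, 0.53 without the 4 libraries), Neurod6 (0.10 and 0.76), Bcl11b (0.34 without the 4) and Cux2 (-0.04 without the 4). In thalamus they were Tbr1 (0.22 with voom, 0.13 with the replicate block) and Prdm8 (-0.02 without the 2 animals). With 1 library left out, the interaction ranged from -0.48 to 0.40 for Bcl11b, -0.23 to 0.61 for Cux2, -0.46 to 2.13 for Fezf2, -0.15 to 1.37 for Neurod2, -0.30 to 1.54 for Neurod6 and -0.70 to 0.76 for Tbr1. The cortex genotype values ranged from -0.49 to 0.22 for Bcl11b, -0.24 to 0.59 for Cux2, -0.37 to 0.17 for Emx1, -0.92 to 0.06 for Fezf2, -0.38 to 0.07 for Neurod2, -0.55 to 0.22 for Neurod6 and -0.08 to 0.37 for Tbr1. Those in thalamus ranged from -0.69 to 0.15 for Bcl11b, -0.23 to 1.28 for Neurod2, -0.33 to 1.38 for Neurod6, -0.05 to 0.29 for Prdm8 and -0.57 to 0.88 for Tbr1. The negative values of Neurod2, Neurod6 and Fezf2 in the interaction, and of Neurod2 and Neurod6 in thalamus, came without ret/ret thalamus replicate 4. Without the 4 libraries, Neurod2 in ret/ret had an adjusted p of 0.0623 and Cux2 in ret/wt one of 0.0346 (edgeR). Depth limits Emx1 and Fezf2 in thalamus, where some libraries held 3 counts or fewer.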
